A study of Mus musculus with 86 samples.

Results

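Pdk4, Ucp3, Cpt1b, Acot1, Acot2, Lpl, Cd36, Hadha, Angptl4 and Slc16a9 are 10 genes of fatty acid use and of the choice between fat and glucose as muscle fuel. They were taken by their gene symbols from 42807 genes in the expected-count table, and all 10 were measured well enough to be tested in both muscles studied. The muscles were the gastrocnemius (GA), a large calf muscle of mostly fast fibres, and the soleus (SO), a small calf muscle rich in slow, oxidative fibres. RNA-seq was run on 43 male C57BL/6N mice per muscle, supplied at 10 weeks of age, kept on free chow and held for at least 1 week before the study.

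Mice in 8 of 9 groups per muscle were injected with 25 mg/kg dexamethasone (DEX), a synthetic glucocorticoid given to waste muscle, on each of 10 days. Non-treated mice received phosphate-buffered saline in place of DEX. Of the 8 injected groups, 1 had DEX alone and 6 had an extract of peony and liquorice roots, Jakyak-gamcho-tang (JGT), 30 minutes after each injection. The extracts JGT02, JGT03 and JGT04 joined peony to liquorice at 2:1, 1:1 and 1:2, and each was gavaged at 100 or 400 mg/kg. The last group received 200 mg/kg resveratrol (RSV), a plant polyphenol. Groups held 5 mice, but DEX alone and JGT04 at 400 mg/kg held 4. Extracts and RSV were carried in 0.5% carboxymethyl cellulose, while the non-treated and DEX mice were gavaged with saline, so a treatment and its carrier cannot be told apart. The day of dissection, 1 day after the last behaviour test, is given, but the hour and any fasting are not given in the sources used here.

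A muscle cell that burns fat must bring fatty acids in, pass them into mitochondria as carnitine esters and oxidise them in cycles, while glucose use is held back at pyruvate. Pdk4 (pyruvate dehydrogenase kinase 4) sets that brake by switching off the enzyme complex through which pyruvate enters oxidation, and it is known to rise in fasting. Most of these genes answer to fatty acids through PPAR receptors, and several are also known to answer to glucocorticoids. Lpl (lipoprotein lipase) frees fatty acids from blood fat, its inhibitor Angptl4 holds that step back, and Cd36 carries fatty acids across the cell membrane. Slc16a9 is a carrier linked to carnitine transport. Cpt1b makes the carnitine esters that enter muscle mitochondria, and Hadha is the large subunit of the trifunctional protein of long-chain beta oxidation. Acot1 and Acot2 free fatty acids from coenzyme A, in the cytosol and in mitochondria, and Ucp3 is the uncoupling protein typical of skeletal muscle, found in the inner mitochondrial membrane.

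The DNA just before the start sites is shown for 4 genes on which the results turn: Pdk4 and Ucp3, whose levels moved together over the libraries, and the neighbours Acot1 and Acot2, whose shares of their summed level differed between groups. Each line holds the 250 bases before the start in the gene's own direction (RefSeq, GRCm38.p6), at chr6:5496279-5496528 on the minus strand and at chr7:100472741-100472990, chr12:84009252-84009501 and chr12:83987611-83987860 on the plus strand. Capitals mark matches to the motifs searched.
Pdk4: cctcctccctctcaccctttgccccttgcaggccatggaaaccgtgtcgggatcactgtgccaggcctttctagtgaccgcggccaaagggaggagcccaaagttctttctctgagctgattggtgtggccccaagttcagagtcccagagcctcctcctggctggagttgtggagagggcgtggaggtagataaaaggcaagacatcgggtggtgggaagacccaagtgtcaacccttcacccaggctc
Ucp3: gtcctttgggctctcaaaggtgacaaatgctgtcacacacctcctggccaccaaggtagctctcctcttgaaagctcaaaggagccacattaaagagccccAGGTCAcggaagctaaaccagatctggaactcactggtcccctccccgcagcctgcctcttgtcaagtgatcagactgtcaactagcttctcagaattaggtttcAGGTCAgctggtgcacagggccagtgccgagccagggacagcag
Acot1: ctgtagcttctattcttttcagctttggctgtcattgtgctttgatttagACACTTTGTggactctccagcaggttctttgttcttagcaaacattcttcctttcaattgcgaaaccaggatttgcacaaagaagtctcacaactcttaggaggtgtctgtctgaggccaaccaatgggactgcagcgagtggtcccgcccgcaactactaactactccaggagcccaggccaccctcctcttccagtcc
Acot2: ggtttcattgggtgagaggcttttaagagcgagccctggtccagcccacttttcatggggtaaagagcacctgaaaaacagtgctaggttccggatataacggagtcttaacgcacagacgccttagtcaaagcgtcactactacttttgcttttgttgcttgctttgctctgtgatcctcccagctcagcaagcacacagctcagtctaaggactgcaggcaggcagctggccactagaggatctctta

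Windows of 300 bases, from 250 before to 50 after the start, were matched for 7 of the 10 genes and searched on both strands for 5 motifs. The direct repeat bound by PPAR receptors, the FoxO motif TGTTTAC and the E-box CACGTG had no match in any of the 7, and they occur in 0.381%, 3.65% and 7.15% of 32851 mouse promoters of that length. The glucocorticoid repeat ACANNNTGT, found in 6.85% of promoters, matched once, at base −200 of Acot1 as ACACTTTGT. The nuclear receptor half-site AGGTCA, which makes up the PPAR repeat, added after the sequences had been seen, occurs in 16.3% of promoters. It matched Ucp3 at −149 and −44 and, on the other strand, Cd36 at −228. Pdk4, Slc16a9, Hadha and Acot2 held none of these letters in these windows. Factor binding was not measured.

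Acot1 (chr12:84009490-84018371) and Acot2 (chr12:83987861-83993873) lie next to each other on the plus strand of chromosome 12 (GRCm38) and are near copies. Their coding sequences, of 1257 and 1359 bases, share 1 exact run of 273 bases, printed below because reads from it fit both genes. It lies at chr12:84017006-84017278 in Acot1 and at chr12:83992728-83993000 in Acot2.
Shared coding run: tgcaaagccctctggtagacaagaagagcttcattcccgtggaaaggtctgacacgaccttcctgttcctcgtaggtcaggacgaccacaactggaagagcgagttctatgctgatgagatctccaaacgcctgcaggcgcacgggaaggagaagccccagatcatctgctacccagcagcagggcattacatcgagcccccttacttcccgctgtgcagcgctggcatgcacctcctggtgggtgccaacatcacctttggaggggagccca

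Of the 31-base words of the transcripts, 22.7% of those of Acot1 and 37.3% of those of Acot2 also occur in another gene, so the division of reads between the pair is an estimate. Cpt1b (chr15:89416405-89425863, minus strand) shares 79.7% of its words with the read-through gene Gm44502, which has no row in the table used here. The other genes lie at chr6:5483351-5496309 (Pdk4, minus), chr7:100472990-100486432 (Ucp3, plus), chr8:68880491-68907448 (Lpl, plus), chr5:17781690-17888801 (Cd36, minus), chr17:33773750-33781830 (Angptl4, minus), chr10:70245100-70285968 (Slc16a9, plus) and chr5:30118304-30155162 (Hadha, minus). Exons of Slc16a9 overlap Gm7097 and Gm9877 on the other strand, and exons of Hadha overlap Garem2. The kit keeps strand, but whether the counting used it is not given in the sources used here.

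Depth was 18.8 to 34.6 M (mega) counts a library, median 27.5 M. The lowest counts of a gene in any of the 86 libraries were 515 for Pdk4, 156 for Ucp3, 39 for Slc16a9, 13.2 for Acot1 and 11 for Angptl4, so the last 3 carry the most counting error. Levels below are CPM, counts scaled to library size within each muscle (TMM, a scaling by the bulk of genes), given by mouse or as mean ± SD. Changes are log2 fold changes ± standard error, and p values are from edgeR's quasi-likelihood test, adjusted by Benjamini-Hochberg over all genes tested, with 0.05 as the limit. Actin gene Acta1 stood at 32833 to 36869 CPM in non-treated GA and at 30303 to 37229 in non-treated SO, and the slow myosin gene Myh7 at 311 to 429 and 6998 to 8025, the labelled slow muscle holding the more. These are whole muscles, in which fewer cells of a type and less RNA per cell cannot be told apart.

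Before any result, 3 libraries stood apart. In the lower dose of JGT02, GA mouse 1 had the embryonic myosin gene Myh3 at 1239 CPM, where other GA libraries reached 25.9, and SO mouse 5 had it at 1065, where others reached 122. In the higher dose, SO mouse 1 had the fast muscle gene Mss51 at 543.5 CPM, against at most 12.2, and Myh7 at 14.4, where SO libraries other than these had at least 4181. All 3 lie outside the DEX and non-treated groups, but each shares its muscle's estimate of spread, so changes of call without them are given beside the results. SO DEX mouse 4 was the lowest of its group in Lpl, Cd36, Cpt1b and Hadha, and a fit that also leaves it out was added after the data were seen. The listed order of the libraries falls into 3 sets that the labels do not name, with borders taken from an earlier analysis of these data. In each muscle the DEX and non-treated mice share a set, while the JGT04 400 and RSV groups of GA, and in SO the RSV group and both doses of JGT03 and JGT04, belong to sets that come after that of DEX. So do mice 4 and 5 of GA JGT04 100 and of SO JGT02 400. No other group has mice in more than 1 set, so a term for the sets is estimated from GA JGT04 100 and SO JGT02 400 alone. In SO that is mice 4 and 5 against mice 1 to 3, and mouse 1 is 1 of the 3 libraries. Calls lost or kept with a set term are therefore a weak check. Which mice shared a cage is not given.

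In non-treated mice the fat-use genes stood higher in SO than in GA. Of the 10 genes 7 were higher and 1 lower in SO in the fit of both muscles, which called 45.8% of all genes, and DESeq2 also called 8. Whether GA and SO libraries of the same group and number come from 1 mouse is not given in the sources used here, and this fit treats them as separate. The median log2 difference was 1.48 over the 10 genes and 0.00 over all genes tested. Lpl differed by 2.46 ± 0.26 (adjusted p = 1.06e-12) and Cd36 by 1.61 ± 0.18 (6.67e-12), so the RNA of both uptake genes was higher in the slow muscle. Uptake itself was not measured. Endothelial cells and fat cells hold both genes too. Of 12 endothelial markers 7 were higher and 1 lower in non-treated SO, and of 14 adipocyte markers 2 were higher. The part of these cells was not tested. The thioesterases were higher as well, Acot1 by 2.54 ± 0.40 (adjusted p = 1.50e-07) and Acot2 by 2.19 ± 0.27 (1.67e-10). Pdk4 was higher by 1.75 ± 0.40 (adjusted p = 0.000162). The oxidation genes Hadha and Cpt1b were higher by 1.13 ± 0.20 (1.62e-06) and 1.00 ± 0.26 (0.000805). Slc16a9 went the other way, lower in SO by 0.74 ± 0.20 on the log2 scale (adjusted p = 0.00127). Ucp3 differed by 0.08 ± 0.31 (adjusted p = 0.868) and Angptl4 by 1.36 ± 0.66 (0.0843). Angptl4 also passed without the 3 libraries (adjusted p = 0.00713). With a term for the sets, which differ between the muscles, 6 genes passed and Cpt1b and Slc16a9 did not.

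Per kilobase of exon, where genes can be set beside each other, Cpt1b led in non-treated GA at 75.3 ± 3.26 CPM per kb. Next came Cd36 at 55.2 ± 3.44, Lpl at 52.3 ± 4.94 and Pdk4 at 48.4 ± 24.4, whose spreads overlap, and then Hadha at 35.1 ± 0.766 and Ucp3 at 14.0 ± 5.69. In SO the order was led by Lpl at 288 ± 46.9 CPM per kb. It was followed by Cd36 at 168 ± 25.3, Pdk4 at 163 ± 83.7 and Cpt1b at 151 ± 13.0, which again overlap in spread, and by Hadha at 76.7 ± 8.76. Acot2 at 15.0 ± 5.91 and Ucp3 at 14.8 ± 7.86 were alike within their spread in SO. Slc16a9, Angptl4 and Acot1 were low in both muscles, from 0.272 ± 0.112 (Acot1, GA) to 3.34 ± 0.814 CPM per kb (Slc16a9, GA).

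Pdk4 fell in SO after 10 days of DEX, from 587 ± 301 to 143 ± 66.3 CPM. Non-treated SO held Pdk4 at 199, 482, 487, 969 and 798 CPM in mice 1 to 5, and DEX SO at 65.1, 112, 192 and 204 in mice 1 to 4. All but 1 of the non-treated mice lay above every DEX mouse, and mouse 1 lay inside the DEX range. The change was −2.03 ± 0.40 (adjusted p = 0.000753). In GA the gene stood at 83.5, 239, 68.5, 205 and 238 CPM in non-treated and 48.0, 83.0, 102 and 81.1 in DEX mice. Here 3 non-treated mice were above the DEX mice and the other 2 were among them, and the change of −1.09 ± 0.43 did not pass (adjusted p = 0.122). With the 3 libraries left out the GA change was −1.08 (adjusted p = 0.0470). The spread of non-treated Pdk4 is wide in both muscles, and the difference between the 2 muscles' responses, −0.97 ± 0.58, did not pass (adjusted p = 0.294). Over all groups that received DEX, 33 of 38 SO mice lay below the lowest non-treated mouse (199 CPM), and 9 of 38 GA mice did (68.5 CPM).

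Ucp3 fell in SO, while the GA groups overlapped widely. Non-treated SO mice held 20.3, 41.7, 39.5, 88.8 and 47.3 CPM and DEX SO mice 13.9, 16.8, 17.3 and 15.3. Every DEX mouse was below every non-treated mouse, and the DEX mice lay within a narrow band while non-treated mouse 4 stood highest by far. The change was −1.59 ± 0.36 (adjusted p = 0.00209). In GA the levels were 27.4, 53.5, 23.9, 45.5 and 65.7 CPM without and 27.7, 37.2, 41.0 and 58.9 with DEX, a change of −0.07 ± 0.30 (adjusted p = 0.941). Ucp3 was the 1 gene of the 10 whose response differed between the muscles in the interaction test, by −1.54 ± 0.47 (adjusted p = 0.0286), and that test called 8.36% of all genes. Without GA DEX mouse 4 the difference was −1.35 (adjusted p = 0.0675) and without SO non-treated mouse 4 it was −1.21 (0.0857), so each of these libraries decides the call. DESeq2 called the same number, 1. With the 3 libraries left out the difference was −1.57 (adjusted p = 0.00291) and 4 genes passed (Ucp3, Cpt1b, Hadha and Cd36), against 33.6% of all genes.

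Slc16a9 fell in both muscles. GA levels were 14.0, 16.0, 7.86, 13.4 and 12.2 CPM in non-treated and 4.23, 4.80, 4.48 and 4.28 in DEX mice. SO levels were 8.47, 7.05, 7.62, 8.16 and 8.27 CPM and 2.68, 2.25, 2.27 and 2.31. The groups did not overlap in either muscle, and DEX mice differed little among themselves. The changes were −1.51 ± 0.27 in GA (adjusted p = 0.000166) and −1.74 ± 0.16 in SO (1.23e-09), and their difference of −0.24 ± 0.31 did not pass (adjusted p = 0.639). In every one of the 8 groups that had DEX the gene stayed low. All 38 injected GA mice, at 1.44 to 6.41 CPM, were under the non-treated range of 7.86 to 16.0, and all 38 injected SO mice, at 1.83 to 4.08 CPM, were under 7.05 to 8.47. None of the other 9 genes separated all injected mice from the non-treated ones in either muscle. The share of all genes tested that separate in this way was not counted, so how uncommon this is cannot be said.

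Of the 10 genes, Slc16a9 alone passed in GA, where DEX called 8.38% of all genes, while 4 passed at an unadjusted p under 0.05 and DESeq2 called 1. In SO 4 fell and none rose (Pdk4, Slc16a9, Ucp3 and Hadha), against 20.8% of all genes called, and DESeq2 called these and Acot2 (adjusted p = 0.0450). The median change of the 10 genes was −0.17 in GA and −0.64 in SO, beside −0.01 and 0.05 for all genes tested. Ranges did not overlap between DEX and non-treated mice for 2 genes in GA (Slc16a9 and Hadha) and for 4 in SO (Slc16a9, Ucp3, Hadha and Cpt1b), where 17.8% and 26.1% of all genes tested did not overlap. The 3 libraries are all from extract groups and enter here only through the shared spread. Without them the changes were nearly the same, 6 genes passed in GA (against 26.4% of all genes) and 7 in SO (43.2%).

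The genes of mitochondrial entry and oxidation, Cpt1b and Hadha, were lower in the DEX mice of SO. Hadha stood at 642, 654, 654, 825 and 650.0 CPM in non-treated and 469.6, 475, 459 and 301 in DEX mice, with no overlap and DEX mouse 4 far below the others. Its change of −0.68 ± 0.25 passed narrowly (adjusted p = 0.0497) and was lost whichever library of the comparison was left out (adjusted p from 0.0583 to 0.181). Without the 3 libraries it was −0.68 (6.15e-06), and without SO DEX mouse 4 as well it was −0.55 (6.65e-05). Cpt1b stood at 500.5, 501, 504, 601 and 497 CPM in non-treated and 361, 409.8, 401 and 215 in DEX mice. The groups did not overlap here either, yet the change of −0.59 ± 0.31 did not pass with all libraries (adjusted p = 0.165). It passed without the 3 libraries at −0.58 (5.43e-05) and without SO DEX mouse 4 as well at −0.41 (0.000193). Of the 38 injected SO mice, 34 were below the non-treated range in Hadha and 30 in Cpt1b.

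In GA the shifts of these 2 genes were small. Cpt1b was at 249 ± 9.44 CPM without and 256 ± 8.85 with DEX, a change of 0.04 ± 0.21 (adjusted p = 0.953). Hadha was at 301 ± 7.37 and 276 ± 10.7 CPM, and its change of −0.12 ± 0.13 passed only without the 3 libraries (adjusted p = 0.0205). With all libraries the difference between the muscles' responses did not pass for either, at −0.65 ± 0.38 for Cpt1b (adjusted p = 0.283) and −0.58 ± 0.29 for Hadha (0.200). Both differences passed without the 3 libraries, at −0.68 (6.30e-06) and −0.62 (3.69e-05). They also passed when SO DEX mouse 4 was left out too, at −0.51 (1.21e-05) and −0.48 (0.000328).

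**Figure D1:**
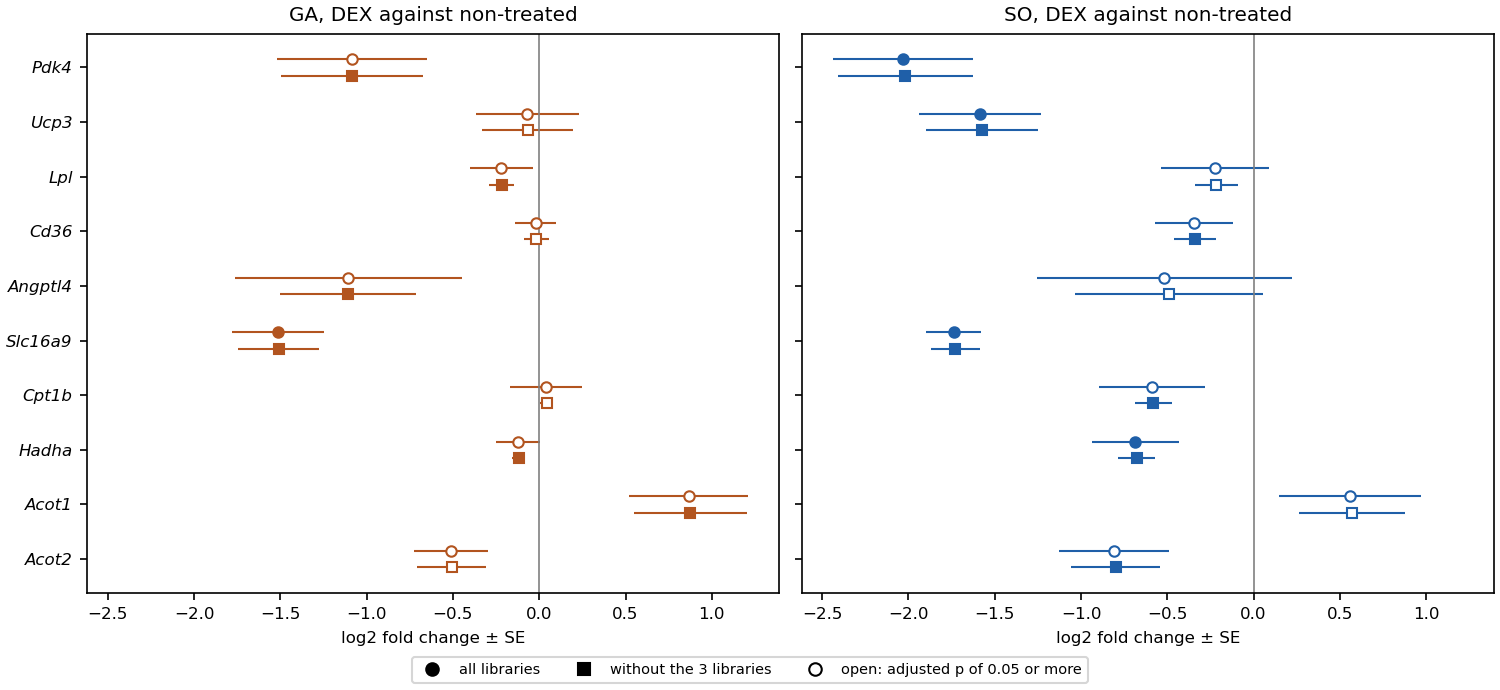
Log2 fold change ± standard error of DEX against non-treated mice for the 10 genes in GA and SO, with all libraries (circles) and without the 3 libraries that stood apart (squares); open symbols have an adjusted p of 0.05 or more. The squares lie almost on the circles, and more of them are filled, 6 against 1 in GA and 7 against 4 in SO.

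None of the uptake genes passed with DEX when all libraries were used. In GA, Lpl was at 486, 524, 628, 509 and 544 CPM in non-treated and 496, 419, 472 and 463 in DEX mice, and in SO at 2457, 2991, 3062, 3864 and 3083 and 2987, 3089, 2971 and 1549. Only SO DEX mouse 4 left the SO non-treated range, and the changes of −0.22 ± 0.18 and −0.22 ± 0.31 did not pass (adjusted p = 0.548 and 0.636). Cd36 was at 178 to 204 CPM in non-treated and 183 to 208 in DEX mice of GA, with nearly the same means. In SO it was at 541, 567, 571, 769 and 647 CPM and 508, 547, 571 and 321, a change of −0.35 ± 0.22 (adjusted p = 0.271). This value passed without the 3 libraries (−0.34, adjusted p = 0.0236) but not without SO DEX mouse 4 as well (−0.19, 0.201). In GA Lpl also passed without the 3 libraries (−0.22, adjusted p = 0.0243).

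Angptl4, the inhibitor of Lpl, had a wide spread and few counts. GA levels were 1.23, 6.93, 2.62, 3.71 and 4.98 CPM in non-treated and 0.833, 2.38, 1.74 and 2.29 in DEX mice. SO levels were 1.87, 8.72, 9.88, 15.7 and 16.0 and 3.49, 3.31, 5.47 and 16.7. In SO 3 of the DEX mice lay between the lowest and the next non-treated mouse, while mouse 4 was above all of them. The changes were −1.11 ± 0.66 in GA (adjusted p = 0.346; without the 3 libraries 0.0320) and −0.52 ± 0.74 in SO (0.646). The SO value rests on mouse 4, without which it was −1.34 (adjusted p = 0.294).

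Fat cells also express Lpl, Cd36 and Angptl4, and their markers moved with DEX. Of 14 adipocyte markers 9 rose and 1 fell in GA, and 11 rose in SO. Beside the counts of every marker list here, DEX called 8.38% of all genes in GA and 20.8% in SO. Without the 3 libraries it called 26.4% and 43.2%. Adipoq, a hormone gene of fat cells, was at 5.39 to 13.6 CPM in non-treated and 23.6 to 34.2 in DEX GA mice, and at 1.91 to 14.2 and 21.1 to 99.8 in SO. The summed level of the 14 was 2880.3 to 3331 CPM in non-treated and 2294 to 2859.6 in DEX GA mice, and 3399 to 3926 and 2416 to 4660.4 in SO. Adipoq, Plin1, Cidec and Lep are a small part of this sum, at medians of 10.2, 8.42, 4.34 and 1.65 CPM in non-treated GA mice. The brown fat gene Ucp1 was at 0 in all 9 GA mice of the 2 groups, in 4 of 5 non-treated SO mice and in 3 of 4 DEX SO mice. Endothelial cells, which hold Lpl and Cd36 too, had 5 of 12 markers lower in GA (sums of 434 to 449 CPM without and 368 to 385 with DEX) and 5 higher in SO (sums of 472 to 597 and 643 to 860.1). No marker of macrophages passed in either muscle with all libraries (3 of 8 rose in SO without the 3). Macrophage sums in GA were 72.7 to 95.7 CPM without and 64.3 to 99.4 with DEX. In SO they were 36.0 to 83.7 CPM without and 44.8 to 354 with DEX, with a DEX median of 66.3. In SO all 8 Schwann cell markers rose (sums of 65.2 to 135 CPM without and 63.1 to 625 with DEX). Of 8 slow fibre genes none passed in either muscle (1 fell in each without the 3 libraries), and of 10 fast fibre genes 1 rose in each. Without the 3 libraries 4 fast fibre genes rose and 2 fell in GA, and 1 rose and 1 fell in SO. The part of other cell types in the levels of these genes was not tested.

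The clock genes moved too, with 7 of 16 higher and 3 lower in each muscle, where DEX called 8.38% of all genes in GA and 20.8% in SO. In SO, Arntl was at 19.3 to 25.3 CPM in non-treated and 2.07 to 3.48 in DEX mice, and Dbp at 25.5 to 74.1 and 116 to 216. Pdk4 is known to vary over the day, and the part of the clock in its level was not tested.

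The neighbours Acot1 and Acot2 leaned in different directions with DEX, though neither passed with all libraries. Acot2 was at 5.71, 6.61, 7.07, 6.89 and 9.26 CPM in non-treated and 3.71, 4.91, 4.86 and 6.44 in DEX GA mice, and at 20.1, 28.2, 29.5, 55.4 and 35.7 and 13.8, 21.0, 31.2 and 11.1 in SO. The DEX mice leaned low in both muscles but overlapped the others, and the changes of −0.51 ± 0.21 (adjusted p = 0.141) and −0.81 ± 0.32 (0.0641) did not pass. Acot1 was at 0.458, 0.922, 1.53, 0.901 and 1.43 CPM in non-treated and 2.15, 1.60, 1.31 and 2.56 in DEX GA mice, and at 2.45, 5.19, 4.48, 12.1 and 7.66 and 9.60, 8.18, 13.3 and 6.47 in SO. Its values leaned high, with changes of 0.87 ± 0.34 (adjusted p = 0.118) and 0.56 ± 0.41 (0.338). When the 3 libraries were left out Acot1 passed in GA (adjusted p = 0.0420) and Acot2 passed in SO (0.0117).

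The share of Acot1 in the summed CPM of the pair was 12.5% ± 3.73 (SD, n = 5) in non-treated and 27.7% ± 6.65 (n = 4) in DEX mice of GA. In SO it was 15.0% ± 3.01 (n = 5) and 34.0% ± 6.08 (n = 4). The share was above the highest non-treated mouse in 33 of 38 injected GA mice and in 37 of 38 injected SO mice. The SO exception was JGT02 100 mouse 5, 1 of the 3 libraries, at 14.8%. The summed level overlapped between the groups, at 8.16 ± 1.67 and 6.89 ± 1.43 CPM in GA and 40.2 ± 16.9 and 28.6 ± 11.6 in SO. The share was noticed in these data and is given as a description with no test, and it rests on the division of shared reads described above.

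**Figure D2:**
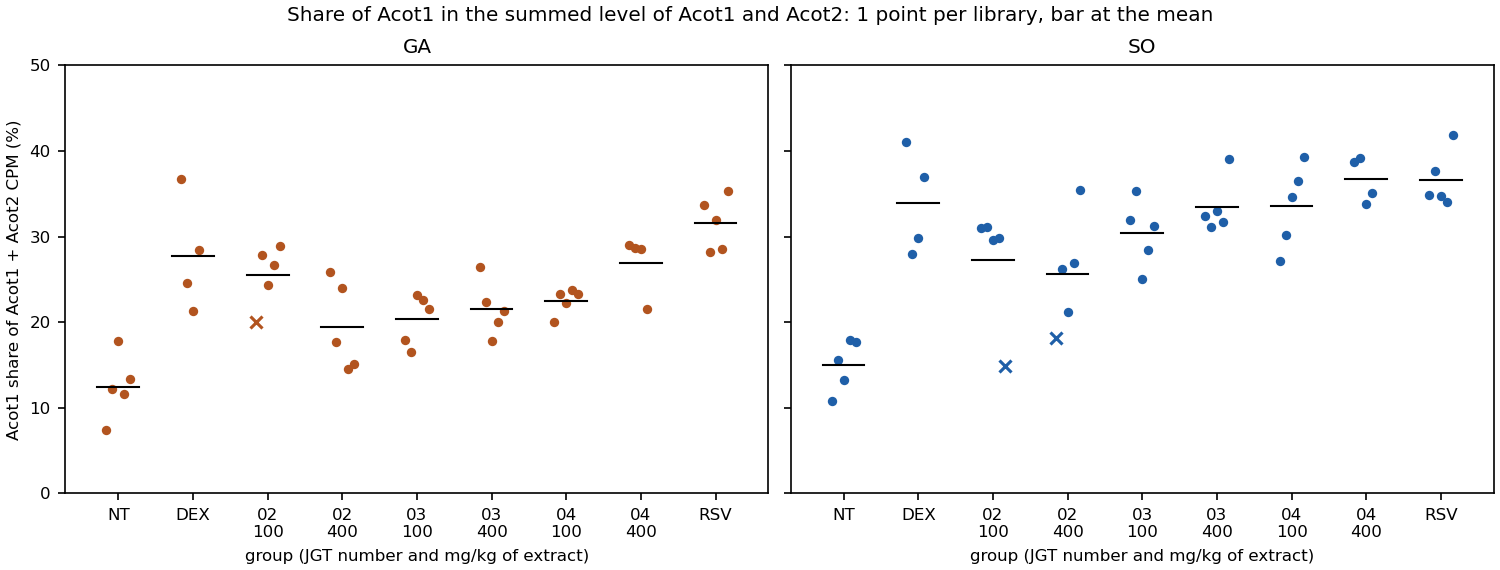
Acot1 as a percent of the summed CPM of Acot1 and Acot2 in each mouse of the 9 groups of GA and SO, with a bar at the group mean. In SO 37 of 38 mice given DEX lie above the highest non-treated mouse, and in GA 33 of 38.

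The next question was whether an extract or RSV moved these genes against DEX alone. All comparisons of a muscle share its 4 DEX mice, so a high or low DEX mouse moves all of them the same way. In GA 3 of 70 tests of a gene in a treatment passed, 2 of them for Acot2. JGT02 at 400 mg/kg had Acot2 at 14.8, 8.94, 13.1, 8.37 and 7.10 CPM and JGT03 at 100 mg/kg had 10.7, 15.6, 7.89, 13.9 and 11.4. All mice of both groups were above the highest DEX mouse (6.44 CPM), where 7.03% and 4.56% of all genes tested did not overlap. Of these 10 mice 6 were above the highest non-treated mouse (9.26). The changes were 1.07 ± 0.21 (adjusted p = 0.00780) and 1.25 ± 0.21 (0.00697). Without DEX mouse 1 the second value was 1.14 (adjusted p = 0.104), and without mouse 2 of the extract group it was 1.14 (0.0524). These contrasts called 0.808% and 0.0207% of all genes, so few genes of any kind passed there. At JGT04 100 mg/kg the Acot2 change of 0.71 ± 0.21 did not pass with all libraries (adjusted p = 0.0832) and passed without the 3 (0.71, 0.0174), and the remaining groups had means of 5.19 to 7.32 CPM. Averaged over the 6 extract groups Acot2 rose by 0.75 ± 0.18 (adjusted p = 0.0231), the 1 gene of the 10 to pass, against 1.26% of all genes. That call was lost with a term for the sets (adjusted p = 0.0517) and without DEX mouse 1 (0.63, adjusted p = 0.144), 2 (0.74, 0.0933) or 3 (0.74, 0.0821).

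The third pass in GA, Angptl4 at JGT02 100 mg/kg (2.51 ± 0.67, adjusted p = 0.0203), rests on 1 of the 3 libraries. The group stood at 41.2, 3.90, 1.26, 3.55 and 0.894 CPM, and without mouse 1 the change was 0.42 (adjusted p = 0.737). It was also lost without DEX mouse 1 (2.26, adjusted p = 0.0684), 3 (2.48, 0.0636) or 4 (2.64, 0.0516). That comparison called 10.2% of all genes.

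Pdk4 and Ucp3 were lowest and highest in the same GA groups. JGT03 at 100 mg/kg had the lowest group means, with Pdk4 at 20.9 to 75.9 CPM and Ucp3 at 15.5 to 35.8, and JGT04 at 100 mg/kg the highest among the injected groups, at 111 to 178 and 59.2 to 92.1. All mice of this last group were above the DEX range in Pdk4, Ucp3, Acot2 and Lpl, 4 of the 10 genes, where 9.44% of all genes tested did not overlap between these groups. Against DEX, Pdk4 changed by 0.87 ± 0.43 (adjusted p = 0.427) and Ucp3 by 0.82 ± 0.30 (0.194) at JGT04 100 mg/kg, and by −0.90 ± 0.43 (0.906) and −0.68 ± 0.30 (0.855) at JGT03 100 mg/kg, none of which passed. Leaving out the 3 libraries, Ucp3 at JGT04 100 mg/kg passed (0.82, adjusted p = 0.0406). No gene of the 10 passed in GA at JGT03 400 mg/kg, JGT04 at either dose or RSV, where 0.677%, 1.38%, 2.04% and 1.37% of all genes were called. At an unadjusted p under 0.05 edgeR counted 1, 2, 0 and 0 there, and DESeq2 called 0 in each.

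**Figure D3:**
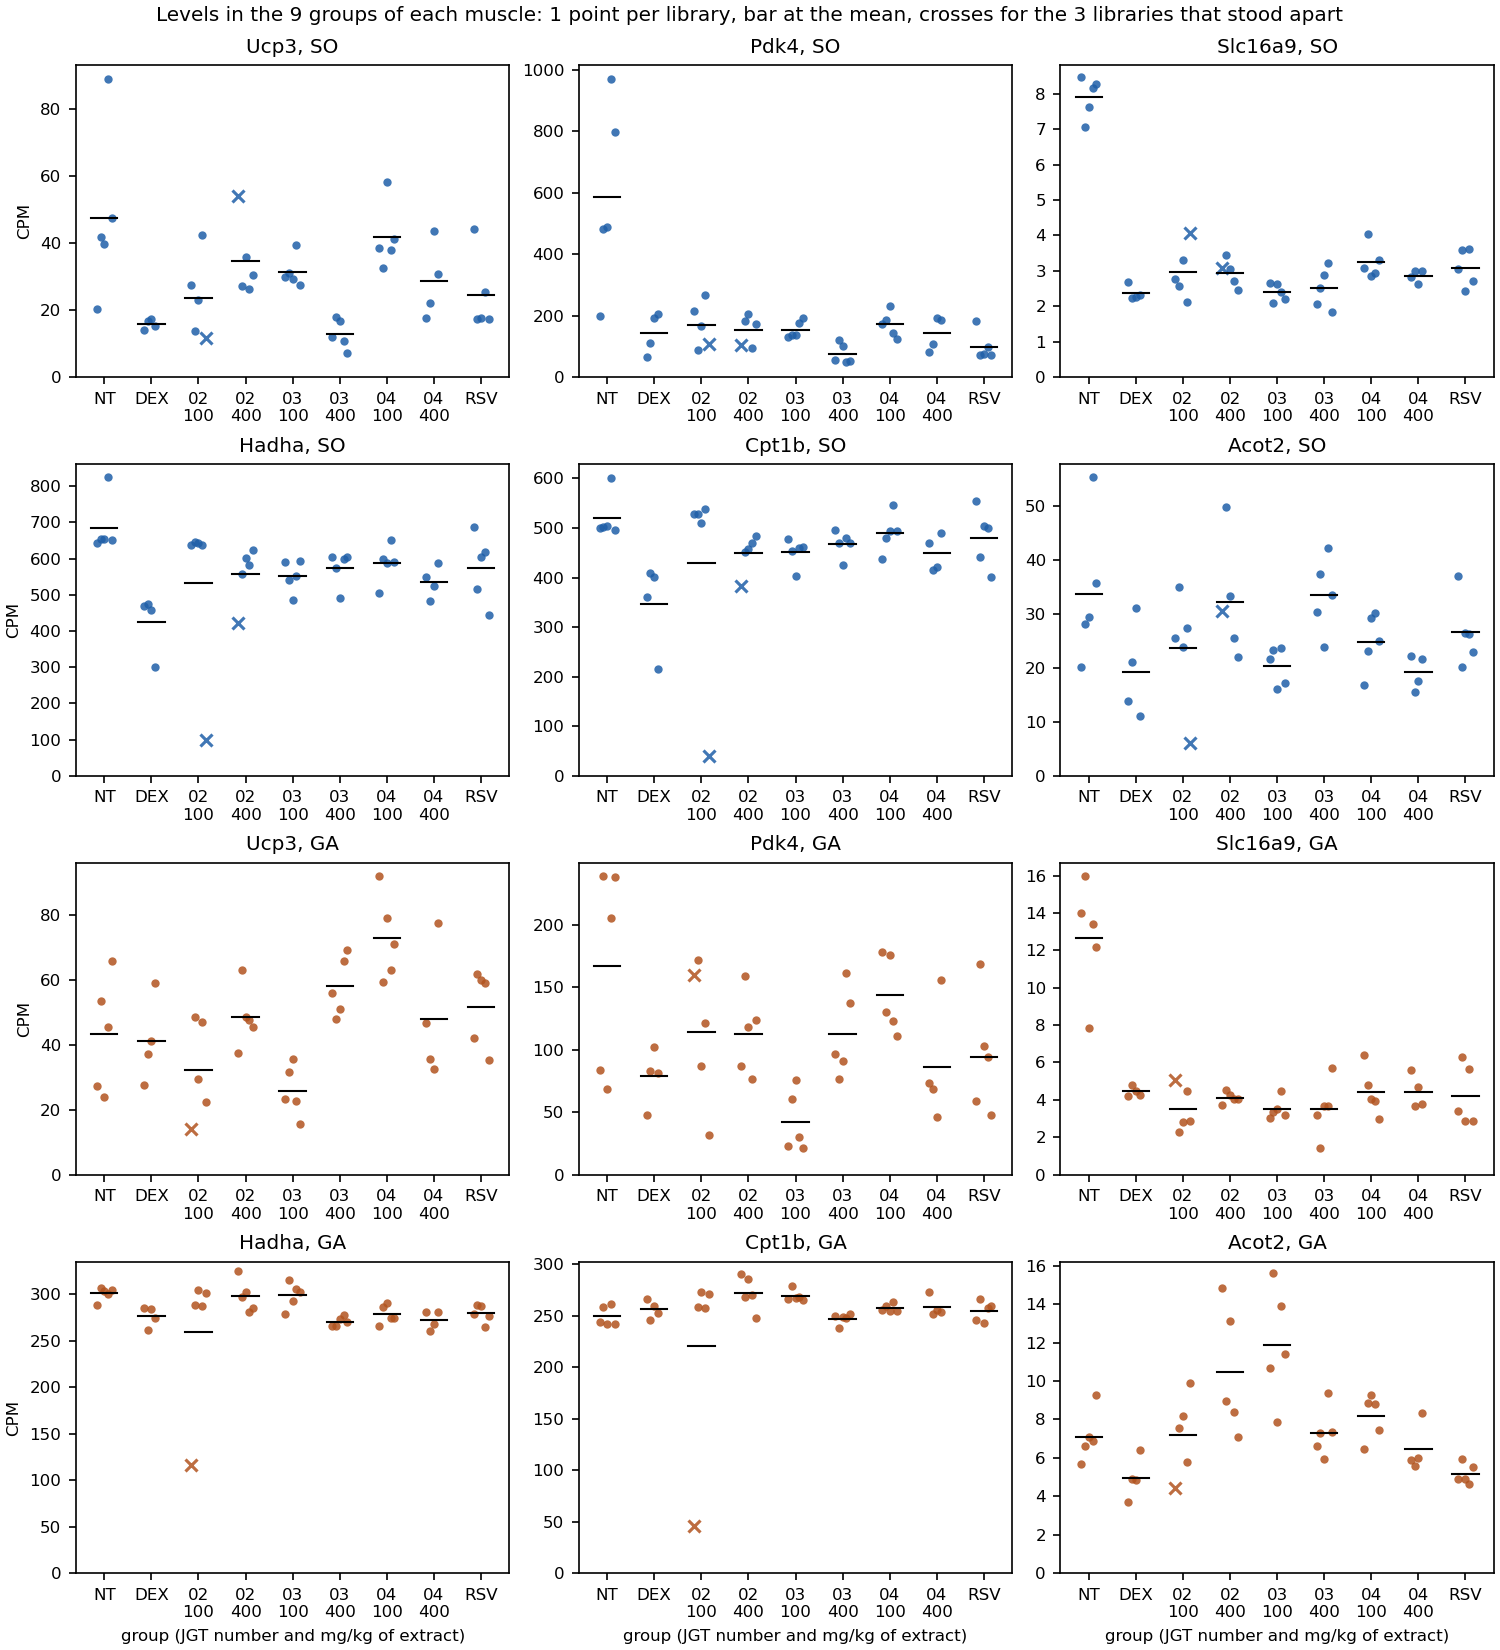
CPM (linear axis from 0) of Ucp3, Pdk4, Slc16a9, Hadha, Cpt1b and Acot2 in each mouse of the 9 groups, SO in the upper panels and GA in the lower panels, with bars at group means and crosses for the 3 libraries that stood apart. Slc16a9 is low in all 8 groups given DEX, SO Ucp3 is above the DEX mice in all mice of JGT02 400, JGT03 100 and both JGT04 groups, and GA Acot2 is above them in JGT02 400, JGT03 100 and JGT04 100. In these comparisons 14.5% to 16.4% of all genes tested did not overlap in SO, and 4.56% to 9.44% in GA.

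In SO 2 of 70 tests passed, both for Ucp3. Against DEX mice at 13.9 to 17.3 CPM, JGT02 at 400 mg/kg held 54.0, 27.2, 35.6, 26.3 and 30.5 and JGT04 at 100 mg/kg held 38.6, 32.5, 58.2, 37.7 and 41.1. Every mouse of both groups was above every DEX mouse, where 16.4% and 16.1% of all genes tested did not overlap. The changes were 1.13 ± 0.35 (adjusted p = 0.0234, where 17.1% of all genes were called) and 1.39 ± 0.35 (0.0113, 8.95%). The JGT04 call held without any 1 library of the 2 groups (1.25 to 1.48, adjusted p from 0.0124 to 0.0403) but not with a term for the sets (adjusted p = 0.254), in which this group and its DEX mice differ. In SO that term rests on the mice of JGT02 400 alone, so it cannot decide this call. The JGT02 call was lost without DEX mouse 1 (1.07, adjusted p = 0.0543), DEX mouse 4 (1.11, 0.066) or its own mouse 1 (0.90, 0.107), 1 of the 3 libraries; with all 3 left out it passed (0.90, 0.0406).

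At JGT03 100 mg/kg Ucp3 missed the limit in the fit of all 9 groups. Its SO mice held Ucp3 at 29.9, 30.9, 29.3, 39.4 and 27.4 CPM, all above the DEX mice, where 14.5% of all genes tested did not overlap. The change was 0.99 ± 0.35 (adjusted p = 0.0699, and 0.0454 in DESeq2). Without the 3 libraries the Ucp3 change passed (0.97, 0.0215), as it did with only these 2 groups in the fit (0.00913). It did not pass with a term for the sets (0.355), which has the same limit as above. The other values were 0.85 ± 0.36 at JGT04 400 mg/kg (adjusted p = 0.178), 0.62 ± 0.35 with RSV (0.232) and −0.31 ± 0.35 at JGT03 400 mg/kg (0.622). That last group had the lowest Ucp3 and Pdk4 of the SO groups, at 12.8 ± 4.37 and 76.1 ± 32.4 CPM. JGT02 100, JGT03 100, JGT03 400, JGT04 400 and RSV had no pass among the 10 genes in SO, with 1, 1, 4, 1 and 1 at an unadjusted p under 0.05 and 0, 1, 0, 0 and 0 called by DESeq2. Of all genes they called 8.82%, 8.49%, 3.06%, 4.58% and 12.7%. In the mean of the 6 extract groups Ucp3 changed by 0.77 ± 0.29 (adjusted p = 0.0717, and 0.0367 in DESeq2). No gene of the 10 passed there in edgeR, against 13.9% of all genes, with 1 at an unadjusted p under 0.05. With the 3 libraries left out, where 39.6% of all genes were called, 4 passed: Ucp3 (0.75, 0.0251), Cpt1b (0.44, 0.000144), Hadha (0.43, 0.000177) and Angptl4 (−1.03, 0.0493).

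Hadha and Cpt1b stood above DEX in all 7 treated SO groups, by 0.32 to 0.46 and 0.31 to 0.50 on the log2 scale, and neither passed in any. Both passed in all 7 groups without the 3 libraries (Cpt1b 0.36 to 0.59, Hadha 0.33 to 0.58), and 24 of 70 tests passed in SO, where 22.2% to 36.7% of all genes were then called. When SO DEX mouse 4, the lowest of the shared DEX mice in both genes, was left out as well, 12 passed, and both genes passed in 5 of the 7 groups. With a term for the sets and without the 3 libraries 5 of 70 passed, so the counts of passes changed with the set term and with 1 DEX mouse. In SO the set term rests on the mice of JGT02 400 alone, so it cannot decide these calls. The SO DEX mice also differed from the treated groups in markers. Their endothelial sum was 643 to 860.1 CPM, against 302 to 645 over the treated groups. The median sum of the skeletal muscle genes was 66740 CPM in DEX, 66587 in non-treated and 73196 to 82349 in treated groups. The part of cell types in the levels of Hadha and Cpt1b was not tested. Pdk4 and Slc16a9, which had the largest changes with DEX in SO, passed in no treatment with all libraries. Group means of Slc16a9 were 2.40 to 3.24 CPM, against 7.91 ± 0.578 in non-treated mice. When the 3 libraries were left out Slc16a9 passed at JGT04 100 mg/kg (0.44, 0.0182) and with RSV (0.37, 0.0396), and Pdk4 in none. Acot2 then passed in SO at JGT02 400 mg/kg (0.74, 0.0328) and JGT03 400 mg/kg (0.78, 0.0213).

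Of the other genes, Lpl in GA lay above the DEX range in all mice of 5 treated groups (JGT02 400, JGT03 400, both JGT04 groups and RSV). In these comparisons, which share the same DEX mice, 7.03% to 14.2% of all genes tested did not overlap. Group means of Lpl were 525 to 569.9 CPM against 462 ± 32.2 in DEX mice. The largest of these changes was 0.30 ± 0.18 (adjusted p = 0.685), and without the 3 libraries it passed (0.30, 0.00925), as did JGT04 400 mg/kg (0.24, 0.0403) and the mean of the extract groups (0.24, 0.00737). In SO, JGT03 at 400 mg/kg had the highest mean of Acot1, 16.9 ± 3.87 CPM, and the lowest of Angptl4, 1.78 ± 2.24 CPM, beside its low Pdk4. Against DEX these were 0.85 ± 0.41 (adjusted p = 0.228) and −2.01 ± 0.78 (0.130), and both passed without the 3 libraries (0.0362 and 0.0117). Cd36 passed in no treatment with all libraries, and its group means ran from 175 to 209 CPM in GA and from 452 to 539 in SO. It passed in SO at JGT02 100 mg/kg without the 3 libraries (0.34, 0.0381).

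Dose and composition made no difference that passed with all libraries. The 3 groups at 400 mg/kg against those at 100 mg/kg gave 0 of 10 in edgeR and in DESeq2 in both muscles, against 0.2% of all genes in GA and 0% in SO, with 2 and 3 at an unadjusted p under 0.05. Ucp3 differed by 0.39 ± 0.17 in GA (adjusted p = 0.273) and by −0.43 ± 0.19 in SO (0.334), and Pdk4 by −0.48 ± 0.21 in SO (0.334). JGT04 against JGT02, the extracts richest in liquorice and in peony, also gave 0 of 10 in both tools, against 0.884% of all genes in GA and 16.5% in SO, with 2 and 0 at an unadjusted p under 0.05. Ucp3 differed by 0.58 ± 0.20 in GA (adjusted p = 0.108), and Hadha passed there without the 3 libraries (−0.11, 0.0267).

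Wider lists of the same pathways place the 10 genes. In SO, with all libraries and 20.8% of all genes called, DEX lowered 4 and raised 1 of 19 genes of mitochondrial beta oxidation (median −0.51), and lowered 5 and raised 1 of 15 genes of carnitine and mitochondrial entry (median −0.44). Beside Hadha the oxidation genes Acadm, the medium-chain acyl-CoA dehydrogenase (−0.82 ± 0.30, adjusted p = 0.0459), and Hadh, which acts on shorter chains (−0.73 ± 0.24, adjusted p = 0.0258), fell. Among entry genes Mlycd, which breaks down the Cpt1 inhibitor malonyl-CoA, fell (−0.67 ± 0.23, adjusted p = 0.0401), and Acaca, which makes it, rose (0.88 ± 0.25, adjusted p = 0.0115). Acaca rose in GA too (0.74 ± 0.21, adjusted p = 0.0215), so its rise is not particular to SO. In the fit without the 3 libraries, which called 43.2% of all genes, 16 of the 19 oxidation genes and 10 of the 15 entry genes fell and 1 and 2 rose. Of 24 genes of pyruvate entry and glucose use 6 fell and 2 rose (median −0.42; 17 and 2 without the 3 libraries). Pdpr, which regulates the phosphatase that undoes the work of Pdk4, fell with it, from 16.1 ± 2.44 to 5.93 ± 1.20 CPM (−1.44 ± 0.35, adjusted p = 0.00414). The glucose carrier Slc2a1 (0.69 ± 0.16, adjusted p = 0.00291) and hexokinase Hk1 (0.57 ± 0.20, adjusted p = 0.0360) rose. Of 21 uptake genes 3 fell and 1 rose in SO, of 10 thioesterases 3 fell and 1 rose, of 6 uncoupling proteins Ucp3 alone fell, and of 20 PPAR and PGC-1 regulators 3 fell and 1 rose (9 and 2, 4 and 1, 1 and 1, and 9 and 1 without the 3 libraries). The regulator that rose is Pparg (1.42 ± 0.39, adjusted p = 0.00950), which is also an adipocyte marker, while Ppard, a PPAR of muscle, fell slightly (−0.31 ± 0.10, adjusted p = 0.0334).

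In GA, where DEX called 8.38% of all genes, 1 of 19 oxidation genes fell and 2 rose, 3 of 15 entry genes fell and 1 rose, and none of 24 pyruvate and glucose genes and none of 6 uncoupling proteins passed. Without the 3 libraries these counts were 8 and 3, 3 and 5, 7 and 3, and 1 and 1. Oxct1, which starts ketone body use, fell (−0.73 ± 0.13, adjusted p = 0.000235) and Eci2, an enoyl-CoA isomerase, rose (0.66 ± 0.14, adjusted p = 0.00126). Of 21 uptake genes 2 fell, among them Gpihbp1, which anchors Lpl in capillaries (−0.56 ± 0.08, adjusted p = 1.30e-05) and is also 1 of the endothelial markers that fell. Of 20 regulators 2 rose, led by the corepressor Nrip1 (1.01 ± 0.14, adjusted p = 3.33e-06), and none fell. In the fit without the 3 libraries 7 uptake genes fell and 2 rose, and 4 regulators fell and 6 rose, where 26.4% of all genes were called. Acot9 rose and Acot11 fell in both muscles, Acot9 at 0.35 ± 0.08, adjusted p = 0.00617 in GA and 0.36 ± 0.11, adjusted p = 0.0204 in SO. Acot11 was at −0.64 ± 0.12, adjusted p = 0.000251 in GA and −0.76 ± 0.21, adjusted p = 0.00911 in SO. Between non-treated muscles 18 of the 19 oxidation genes were higher in SO and none lower, where 45.8% of all genes were called. In the treatments no oxidation gene passed in SO with all libraries except 1 up and 1 down with RSV. These comparisons called 3.06% to 17.1% of all genes. Without the 3 libraries 9 to 16 rose per treatment, where 22.2% to 36.7% of all genes were called. All 7 treatments share the DEX mice, SO DEX mouse 4 among them.

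Over the 43 libraries of each muscle, with the groups pooled, Pdk4 and Ucp3 varied together. Likeness within groups was not computed. Spearman's rho, over all 9 groups and so including differences between groups, was 0.719 in GA and 0.689 in SO (0.803 and 0.733 without the libraries that stood apart). Among 8898 GA genes ranked by likeness to Pdk4, Ucp3 came first, before Slc25a22, a mitochondrial glutamate carrier (0.702), and Vps18 (0.695). Among 9218 genes in SO, Slc25a22 came first (0.851), followed by Elmod3 (0.730), Hsd17b4, an enzyme of peroxisomal oxidation (0.698), Angptl4 (0.692) and Ucp3. Cpt1b was at −0.255 in GA and 0.296 in SO, and Acot1 in SO at −0.412. These values share libraries, sets and depth and are a description.

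**Figure D4:**
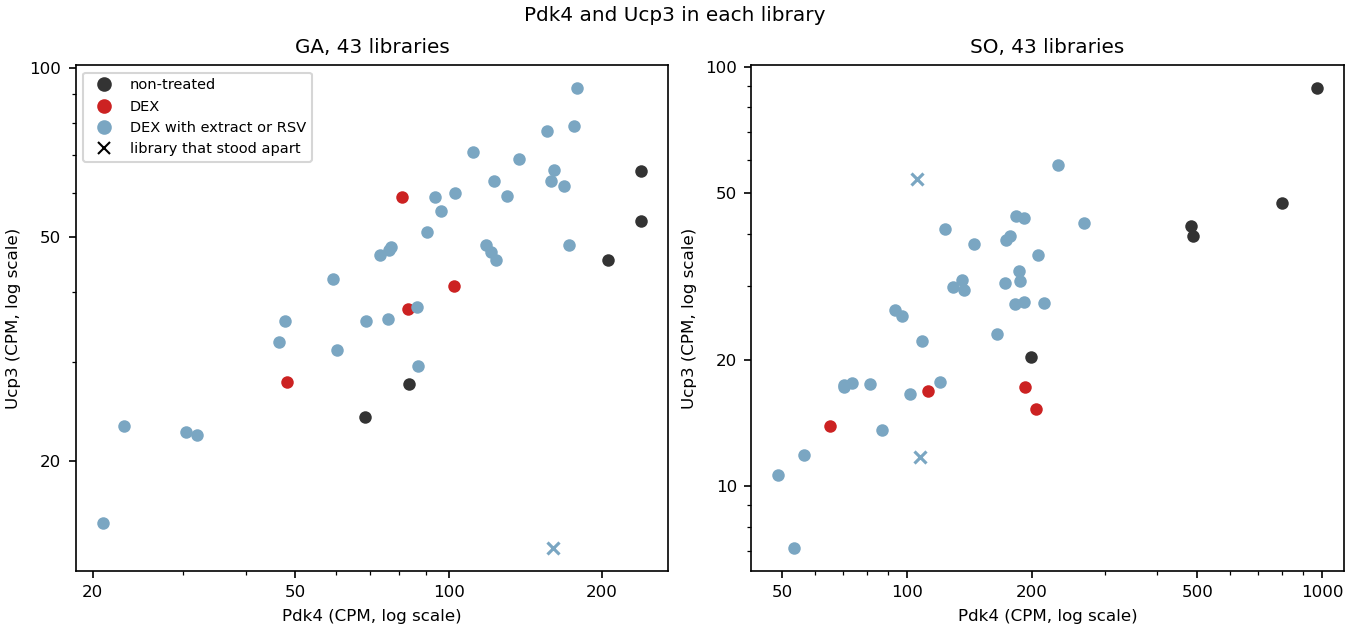
Ucp3 against Pdk4, both in CPM on log axes, 1 point per mouse, for GA and SO, coloured by non-treated, DEX and DEX with an extract or RSV; crosses are the 3 libraries that stood apart. The 2 genes rise together in both muscles, with Spearman's rho of 0.719 in GA and 0.689 in SO.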

How the data were processed

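Expected counts per gene symbol were deposited by the authors for 86 libraries (TRIzol RNA, a directional MGIEasy kit and paired reads of 100 bases, per the labels' protocols). Per the submitters' processing notes, the authors aligned to GRCm38 with STAR 2.7.3a and counted with RSEM 1.3.3, after FastQC 0.11.9 and Trim Galore 0.6.5; the annotation, settings and strand option are not given in the sources used here. RSEM divides reads that fit several genes, and 18.5% of non-zero values were not whole (tolerance 0). Columns were matched to samples by the names in the labels.

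Counts were rounded, filtered with filterByExpr (14484 genes kept in GA, 14811 in SO, 15327 in both) and scaled by TMM. The 9 groups of a muscle shared 1 fit, and SO against GA and the interaction used 1 fit over all libraries, with the quasi-likelihood test of edgeR 4.0.16 (R 4.3.3, limma 3.58.1), Benjamini-Hochberg adjustment over all genes tested and a limit of 0.05. The DEX contrast of each muscle was also run on simulated counts, with 1 dispersion for all genes and no library set apart. That run does not check the treatments, the interaction or the spread of the real data. Groups are 4 or 5 separate mice, so p-values measure the spread between mice; the labels name 1 batch. The standard error of an edgeR change was worked back from the test, as the absolute log2 fold change over the square root of the F value. Levels per kb divide CPM of the joint scale by merged exon length.

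All 10 genes were tested in each comparison, and values are given for those it turns on. From 7 pathway lists up to 2 genes per list and direction are named, the largest changes that pass at a mean of at least 5 CPM, a choice of those being printed. The 10 genes and the lists were chosen with earlier results of these data known. Likeness to Pdk4 is Spearman's rho of log2 CPM (prior count of 2). Promoters are from RefSeq (GRCm38.p6), with 7 of 10 genes matched.

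Other settings tried were no filter on low counts, DESeq2 1.42.0 and its size factors, the mouse number as a block, only the groups compared, a set term, fits without the 3 libraries that stood apart, and leaving out each library. A fit also without SO DEX mouse 4 was added after the data were seen. Python 3.11.15 with matplotlib 3.10.9, scipy 1.17.1, pandas 2.3.3 and numpy 2.4.6 made tables and figures.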

Additional observations from a re-analysis of the deposited data

Results flagged for a closer look

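Of 180 sets of 1 gene in 1 group, 24 had a mouse whose gap to the nearest of the others took up most of the group's range, where chance flags about 1 in 20, and 10 of the 24 came from the 3 libraries that stood apart. GA JGT02 100 mouse 1 was high in Angptl4 at 41.2 CPM (the others 0.894 to 3.90) and low in Cpt1b at 46.5 (257 to 272), Hadha at 116 (287 to 305) and Lpl at 146 (516 to 612). SO JGT02 100 mouse 5 was high in Angptl4 at 63.4 CPM (2.02 to 5.55) and low in Cpt1b at 40.1 (509.7 to 538), Hadha at 98.5 (636 to 647), Cd36 at 177 (576 to 639) and Lpl at 396 (2634 to 3006). In these 2 libraries the sum of 8 skeletal muscle genes was also low, at 18520.1 and 11009 CPM (65518 to 69204 and 73860 to 75818 in the others of their groups), and that of 8 macrophage markers high, at 2478.5 and 2974 (62.9 to 101 and 35.6 to 47.7). Their part in the levels of these genes was not tested. SO JGT02 400 mouse 1 was low in Lpl at 790.2 CPM (2539 to 3118).

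SO DEX mouse 4 was high in Angptl4 at 16.7 CPM (3.31 to 5.47) and low in Hadha at 301 (459 to 475) and Lpl at 1549 (2971 to 3089). These are the directions seen in GA JGT02 100 mouse 1 and SO JGT02 100 mouse 5. SO JGT02 400 mouse 1 was not high in Angptl4, at 1.64 CPM (1.10 to 6.28). SO non-treated mouse 4 was high in Cpt1b at 601 CPM (497 to 504) and Hadha at 825 (642 to 654). SO JGT03 400 mouse 3 was high in Angptl4 at 5.70 CPM (0.503 to 1.57) and low in Hadha at 492 (574 to 605). In SO, RSV mouse 1 was high in Pdk4 at 183 CPM (70.4 to 97.5) and DEX mouse 1 in Slc16a9 at 2.68 (2.25 to 2.31). In GA, JGT03 400 mouse 4 was high in Angptl4 at 2.73 CPM (1.12 to 1.57) and JGT04 400 mouse 4 in Acot2 at 8.36 (5.57 to 6.00). Cpt1b in GA stood out in JGT03 100 mouse 2 at 279 CPM (265 to 268), JGT03 400 mouse 2 at 238 (247 to 251) and JGT04 400 mouse 1 at 273 (252 to 255). The DEX response of Ucp3 differed between SO and GA by −1.54 on the log2 scale in the interaction test.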

How the results depend on the processing

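Of 400 values of 46 gene results under other settings, 348 kept direction and side of the limit, 16 lost the call, 34 gained one and 2 changed sign; of 538 values with 1 library left out the numbers were 500, 23, 3 and 12. The cause was not tested except where fewer libraries or genes entered by construction. Of the 10 genes DEX changed 1 in GA, 6 without the 3 libraries that stood apart (also with a set term) and 2 with only the groups compared. In SO it changed 4, and 7 without the 3 libraries, with or without a set term. The interaction had 1, 4 without the 3 libraries (also with a set term), 3 with only the groups compared, 3 without SO DEX mouse 4 as well, and 0 with the replicate block. Of 70 treatment tests in GA 3 passed, 6 without the 3 libraries (where 0.963% to 11.3% of all genes were called) and 7 with only the groups compared. In SO 2 passed, 24 without the 3 libraries, 12 without SO DEX mouse 4 as well, 1 with a set term, 5 with both the term and without the 3 libraries, and 4 with only the groups compared. The mean of the extract groups had 1 in GA, 2 without the 3 libraries with or without a set term, 0 with the term alone and 0 with only the groups compared. In SO it had 0, 1 in DESeq2, 1 with the replicate block, 4 without the 3 libraries and 2 without SO DEX mouse 4 as well. JGT04 against JGT02 had 0, and 1 in GA without the 3 libraries (Hadha, −0.11) and 1 in SO without SO DEX mouse 4 as well (Acot2, −0.46). Apart from the main fit and the fit without the 3 libraries, the share of all genes called is not given here. Changes in the other counts therefore cannot be read as particular to the 10 genes.

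With 1 library left out, counts ran from 1 to 3 for the GA treatments, 1 to 4 in SO, 0 to 1 for the interaction and for JGT04 against JGT02 in GA, 0 to 2 and 0 to 3 for the extract means of GA and SO, 3 to 4 for DEX in SO and 8 to 9 between muscles. Signs changed for Ucp3 from −0.29 to 0.13 and Cd36 from −0.059 to 0.0053 for DEX in GA, Ucp3 from −0.29 to 0.28 between non-treated muscles, and in the interaction Lpl from −0.14 to 0.12, Angptl4 from −0.31 to 0.80 (0.57 with all libraries, −0.31 without SO DEX mouse 4) and Acot1 from −0.58 to 0.0066. Without the 3 libraries and SO DEX mouse 4 the interaction of Lpl was 0.13 and that of Angptl4 −0.28.

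Mice of 1 number did not deviate together: the median correlation of deviations was 0.002 in GA and 0.004 in SO, and 0.019 between muscles (−0.800 to 0.748). The labels do not say whether a number marks 1 mouse in both muscles, and the replicate block, which takes it so between muscles, moved counts as given above and to 5 for DEX in SO, 2 for the GA treatments and 3 for those of SO, and left the other counts as they were. Low counts of Acot1, Angptl4 and Slc16a9 limit their precision.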
